A study of Bos grunniens with 18 samples.

Results

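The genes compared here are those of whole yak testis at 4 years of age against 6 months of age, that is, of adult against immature tissue. All 22183 genes of the deposited gene table were taken by identifier, and 16350 of them carried enough counts to be tested. The series holds 18 libraries, of which 9 give gene values, and the 6 used for the comparison are the 3 libraries of animals aged 4 years and the 3 of animals aged 6 months. The question is which transcripts a testis gains and loses between these ages. Every animal was a healthy male yak (Bos grunniens) of unstated genotype from 1 cooperative, and each library came from a different animal. At both ages the testis was removed surgically under anaesthesia, rinsed in saline and snap-frozen. Libraries were made after depletion of ribosomal RNA and read from both ends, so the libraries also hold transcripts without a poly(A) tail. A further label of the samples calls the 4-year animals infant and the 6-month animals adolescent, against the ages in the titles and in the collection notes, and was not used. The libraries titled 4 years were those with abundant sperm transcripts, as given below.

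In the testis, germ cells divide as spermatogonia, pass through meiosis as spermatocytes and are then remodelled as spermatids, in which histones give way to protamines, an acrosome forms and a tail is built. Sertoli cells of the tubules nurse the germ cells, Leydig cells between the tubules make androgens from cholesterol, and peritubular cells, fibroblasts, vessels and leukocytes complete the tissue. Before puberty the tubules hold mainly immature Sertoli cells and early germ cells, and after it spermatocytes and spermatids make up most of the tissue. The values are of whole tissue and relative to all RNA of a library, so fewer cells of a type and less RNA per cell cannot be told apart.

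Libraries held 26157259 to 27311716 counts at 6 months and 22950630 to 33123856 at 4 years. Levels are given as counts scaled to a common library size (CPM) when 1 gene is followed between ages, and as FPKM, which is also per kilobase, when genes are compared with each other. Changes are log2 fold changes of 4 years over 6 months with their SE, from edgeR's quasi-likelihood test with Benjamini-Hochberg adjustment over the 16350 genes, with n = 3 animals per age throughout. A gene is called, and is said to rise or fall, at an adjusted p under 0.05. The biological coefficient of variation was 20% over the 6 libraries. Log2 CPM of libraries of 1 age correlated across genes at 0.9764 to 0.9836, against 0.4685 to 0.5221 between ages, where genes are not independent replicates. Germ cell, Sertoli cell and Leydig cell markers were present, whereas CRISP1 and GPX5 of epididymis and HBB and ALAS2 of erythrocytes were under 0.3 CPM in each of the 6 libraries. Other members of those lists were higher, and some of them are given with the lists.

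Most of the testis transcriptome differed between the ages. Of the tested genes, 6882 (42.1%) rose and 6361 (38.9%) fell, so that 13243 (81.0%) were called, and 3107 did not pass the test. The 4-year and 6-month libraries did not overlap in 13660 genes (83.5%). The rises were the larger changes, with a median log2 fold change of 2.34 over the genes that rose and -1.71 over those that fell, against 0.05 over all tested genes. At least a 2-fold change was seen in 5533 genes that rose and 4807 that fell, at least 8-fold in 2813 and 1036, and at least 128-fold in 893 and 22, where 3 counts over the libraries of an age stood in for a gene with none. No counts at 6 months were found for 330 genes that rose, and no counts at 4 years for 13 that fell. A gene present at 1 age alone passes the filter on low counts through that age, so counts over tested genes describe the tissue and the number of a list's members left out by the filter is given beside it where there were any. The 95% interval of the change lay within 2-fold either way for 3302 genes (20.2%).

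**Figure D1:**
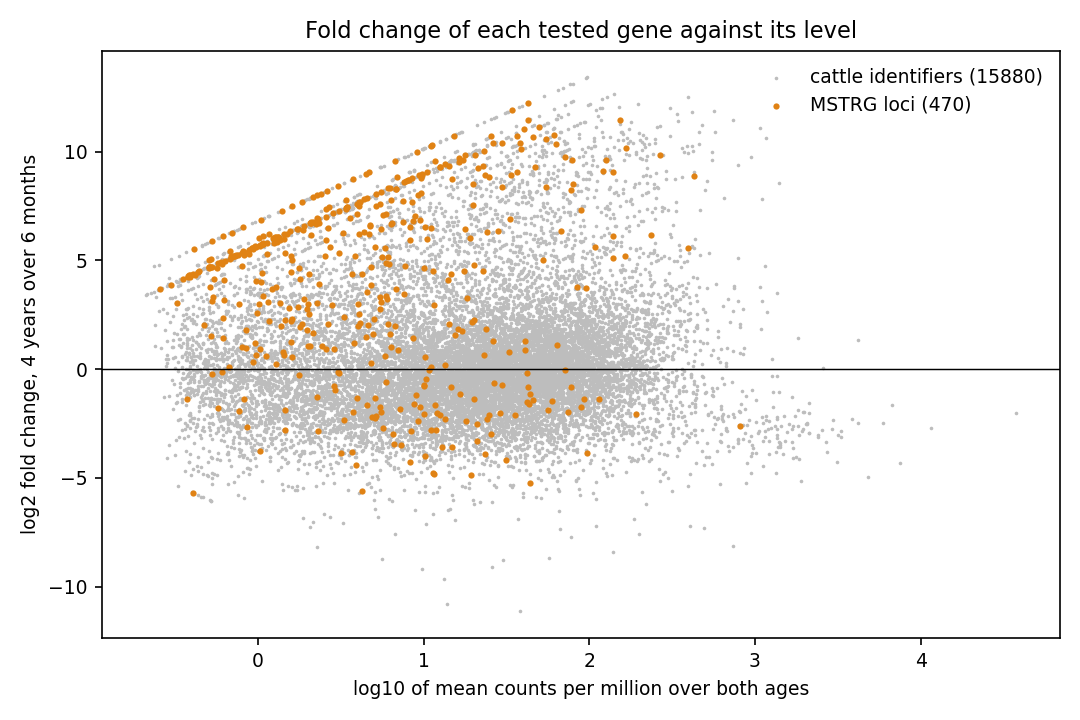
Each point is 1 of the 16350 tested genes, with its log2 fold change of 4 years over 6 months against the log10 of its mean CPM over both ages. MSTRG loci are orange, genes with cattle identifiers are grey, and genes with 0 counts at 1 age are drawn at their bound. The changes reach further upward than downward, while at the highest levels the genes lie mostly below 0.

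The direction of change depended on the level of the gene. Among the 99 tested genes above a mean of 1000 CPM, 84 fell and 13 rose, whereas among the 1932 genes between 100 and 1000 CPM, 1038 rose and 715 fell. Few genes dominated the 6-month libraries. The 10 genes with most counts in each library held 14.3, 14.3 and 13.9% of the counts at 6 months and 4.49, 4.71 and 4.33% at 4 years. The 500 genes with most counts held 55.6% ± 0.413 (SD, n = 3) at 6 months and 34.5% ± 0.868 at 4 years. Both shares were lower in every 4-year library than in any 6-month library (exact two-sided permutation test, p = 0.10, the smallest that 3 against 3 libraries can give). At least 100 CPM was reached by 1653 genes at 6 months and 2314 at 4 years, of which 787 reached it at both ages. The genes called higher, chosen by this same difference, held 13.7% of counts at 6 months and 68.4% at 4 years.

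The genes with most counts among those that rose at least 4-fold included several known from male germ cells. PHF7, a PHD finger protein of male germ cells, was at 4.35, 9.05 and 9.26 CPM at 6 months and at 2986, 2852 and 2581 CPM at 4 years (log2 fold change 8.54 ± 0.32, adjusted p = 2.31e-08). HSPB9, a small heat shock protein of the testis, was at 0.420, 0.553 and 3.54 CPM at 6 months and at 2554, 2379 and 2104 CPM at 4 years (10.62 ± 0.68, adjusted p = 5.42e-07). GSG1, a germ cell membrane protein, was at 0.229, 0.514 and 2.31 CPM at 6 months and at 2453, 2187 and 1830.2 CPM at 4 years (11.07 ± 0.61, adjusted p = 2.02e-07). In HSPB9 and GSG1 the third 6-month animal had the highest value of its age, still far under every 4-year animal. YBX2, which binds and stores messenger RNA in germ cells, was at 0.382, 1.70 and 4.57 CPM at 6 months and at 2076, 1984 and 1635 CPM at 4 years (9.76 ± 0.66, adjusted p = 7.83e-07). KIF17, a kinesin motor, was at 7.26, 10.8 and 11.3 CPM at 6 months and at 2684, 2198 and 1713 CPM at 4 years (7.81 ± 0.27, adjusted p = 1.62e-08). DNAAF1, which assembles the dynein arms of cilia and flagella, was at 1.57, 1.90 and 3.62 CPM at 6 months and at 1709, 1654 and 1406 CPM at 4 years (9.40 ± 0.32, adjusted p = 1.55e-08). No 6-month library of these genes came near a 4-year library.

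Other abundant genes were already expressed at 6 months and rose from there. DKKL1, an acrosomal protein, was at 72.9, 81.3 and 97.1 CPM at 6 months and at 2469, 2362 and 1807 CPM at 4 years (4.72 ± 0.18, adjusted p = 2.69e-08). ODF2, of the outer dense fibres of the sperm tail and of centrioles, was at 45.1, 42.2 and 46.8 CPM at 6 months and at 1724, 1535 and 1333 CPM at 4 years (5.10 ± 0.15, adjusted p = 8.65e-09). MEA1, the male-enhanced antigen, was at 153, 143 and 145 CPM at 6 months and at 2180, 2034 and 1764 CPM at 4 years (3.76 ± 0.13, adjusted p = 1.58e-08). AP2B1, an adaptor subunit of clathrin coats, and HDLBP, the RNA-binding protein vigilin, rose by 3.13 ± 0.12 and 2.62 ± 0.13 on the log2 scale, to 1902 to 2058 and 1895 to 2168 CPM. One of the 12 genes with most counts among those that rose at least 4-fold has no symbol or description. This gene, ENSBTAG00000053003, was at 232, 212 and 221 CPM at 6 months and at 2793, 2663 and 2065 CPM at 4 years (3.50 ± 0.15, adjusted p = 4.33e-08).

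Of the 12 genes with most counts that fell at least 4-fold, 7 encode ribosomal proteins, 2 translation factors and the other 3 the secreted proteins TIMP2, SPARC and APOA1. RPS29, a protein of the small ribosomal subunit, was at 63038, 61539 and 57620.4 CPM at 6 months and at 13963, 16109 and 14688 CPM at 4 years (log2 fold change -2.03 ± 0.12, adjusted p = 3.34e-07), and it held most counts of any gene in each of the 6 libraries. The counts and FPKM of RPS29 imply a length of 1901 bases, against 553 for RPLP1. Whether other RNA of that locus was counted with RPS29 was not tested. EEF1A1, which brings transfer RNA to the ribosome, was at 22654, 16756 and 20586 CPM at 6 months and at 2852, 2965 and 3249 CPM at 4 years (-2.73 ± 0.15, adjusted p = 1.82e-07). EEF2, the translocation factor of translation, fell from 5826, 6345 and 7196 CPM to 1349.5, 1321 and 1252 CPM (-2.30 ± 0.12, adjusted p = 1.78e-07). The ages did not overlap in any of them. TIMP2, an inhibitor of matrix metalloproteinases, was at 10729.9, 14126 and 18200.1 CPM at 6 months and at 835, 712 and 644 CPM at 4 years (-4.30 ± 0.22, adjusted p = 1.31e-07). SPARC, a matricellular glycoprotein, was at 6956, 8947 and 12194 CPM at 6 months and at 320, 279 and 298 CPM at 4 years (-4.97 ± 0.23, adjusted p = 6.20e-08). APOA1, the main protein of high-density lipoprotein, was at 4741, 6227 and 6911 CPM at 6 months and at 277, 290.1 and 349 CPM at 4 years (-4.29 ± 0.19, adjusted p = 4.71e-08). The 6-month animals differed among themselves in TIMP2 and SPARC, with replicate 1 the lowest and replicate 3 the highest, and each was above every 4-year animal. The other genes among the 12 with most counts that fell at least 4-fold were RPS2, RPLP1, RPL3, RPSA, RPLP0 and RPL4, with log2 fold changes from -3.79 ± 0.13 for RPL4 to -2.47 ± 0.12 for RPLP1.

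**Figure D2:**
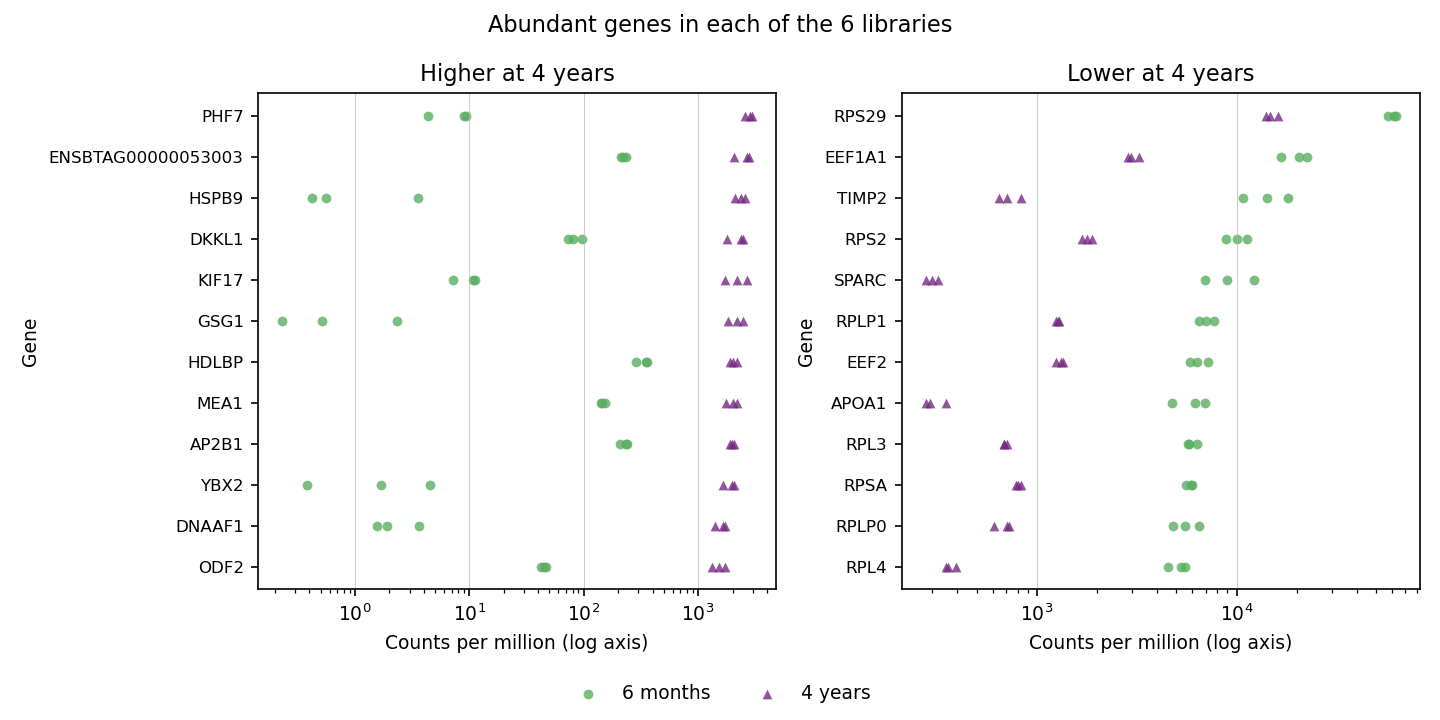
CPM on a log axis of the 12 genes with most counts at 4 years (left) and of the 12 with most counts at 6 months (right), among genes that changed at least 4-fold, with 1 point per library. In all 24 genes the circles of the 6-month libraries and the triangles of the 4-year libraries stand apart.

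Per length, the list of the highest transcripts turned over. Of the 100 genes with the highest mean FPKM at each age, 36 were in both, and ribosomal protein genes made up 68 of the 100 at 6 months and 28 at 4 years. Of the 100 at 6 months, 98 fell and 1 rose, and of the 100 at 4 years, 61 rose and 36 fell. At 6 months the highest FPKM values were 29316 ± 2078 (SD) for RPS29, 11685 ± 735 for RPLP1 and 11392 ± 3122 for INSL3, the insulin-like hormone of Leydig cells that guides testis descent. RPS29 was still the highest at 4 years, at 8464 ± 623 FPKM. It was followed by UBB, a polyubiquitin gene, which was at 2374, 2330.2 and 2364 FPKM at 6 months and at 7142, 7454 and 6906 FPKM at 4 years (log2 fold change 1.36 ± 0.11, adjusted p = 2.65e-06). HSPB9 came next with 4583 ± 333 FPKM at 4 years, from 2.45 ± 2.82 at 6 months. INSL3 kept a place among the highest at 4 years with 4238 ± 1074 FPKM although it fell (-1.65 ± 0.25, adjusted p = 0.000187). TNP1, a transition protein that packs spermatid DNA between histones and protamines, was at 1.01 ± 1.08 FPKM at 6 months and 2305 ± 286 at 4 years. GSTM3, a glutathione transferase, was at 2472 ± 51.4 FPKM at 6 months and 3008 ± 208 at 4 years, and its CPM did not pass the test (0.05 ± 0.11, adjusted p = 0.694).

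Abundant transcripts were gained far more often than lost. With at least 100 CPM at 4 years and under 1 CPM in each 6-month library, 225 genes were gained, and with the reverse limits 2 were lost. Under a limit of 5 CPM in place of 1 the counts were 399 gained and 21 lost. The 225 genes lay between 101 and 1140.5 CPM at 4 years, with a median of 170.1 CPM. They held 0.00272, 0.00514 and 0.00781% of counts in the 6-month libraries and 5.87, 5.66 and 5.16% in the 4-year libraries, which follows from how they were chosen. Of the 225, 65 were on the lists of germ cell genes or germ cell isoforms, 154 were on no list, 12 were MSTRG loci and 3 were cattle identifiers without a symbol. Of all 16350 tested genes 470 were MSTRG loci. The share of all tested genes on the germ cell lists is not given here, so the 65 are not read against it.

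Among the gained genes with most counts at 4 years, 8 are described, 7 of them named after their values were seen, and most are genes of spermatids. OAZ3, the antizyme of haploid germ cells that restrains polyamine synthesis, was at 0, 0.198 and 0.741 CPM at 6 months and at 1332, 1193 and 896 CPM at 4 years (log2 fold change 11.85 ± 0.55, adjusted p = 6.93e-08). PRM2, protamine 2, was at 0.115, 0.198 and 0.906 CPM at 6 months and at 1035, 1099.9 and 732 CPM at 4 years (11.22 ± 0.48, adjusted p = 4.41e-08). DBIL5, an endozepine-like peptide, was at 0.726, 0.830 and 0.864 CPM at 6 months and at 924, 904 and 697 CPM at 4 years (10.02 ± 0.21, adjusted p = 6.87e-09). H1-9, a linker histone of spermatids, reached 946, 869 and 678 CPM at 4 years, with at most 0.453 CPM in a 6-month library. MROH7, which carries maestro heat-like repeats, reached 940, 741 and 679.9 CPM, with at most 0.247 CPM in a 6-month library. SPEM1, of spermatid maturation, HMGB4, a chromatin protein, and SMCP, a cysteine-rich protein of sperm mitochondria, were at 538 to 835, 618 to 727 and 530.4 to 691 CPM at 4 years. The third 6-month animal had the highest 6-month value in all of these 8 genes, and the third 4-year animal the lowest 4-year value.

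The 2 abundant transcripts lost at 4 years were CCL25 and AOC3. CCL25, a chemokine best known from thymus and gut, was at 305, 216 and 312 CPM at 6 months and at 0.925, 0.634 and 0.911 CPM at 4 years (log2 fold change -8.41 ± 0.24, adjusted p = 7.92e-09). AOC3, a primary amine oxidase, was at 139, 93.8 and 109.6 CPM at 6 months and at 0.0660, 0.173 and 0.634 CPM at 4 years (-8.70 ± 0.43, adjusted p = 1.02e-07). Of the 19 others under the limit of 5 CPM, the one with most counts at 6 months was CHGA, chromogranin A of secretory granules, at 264, 376 and 553 CPM at 6 months and at 1.32, 2.42 and 2.54 CPM at 4 years (-7.57 ± 0.37, adjusted p = 9.35e-08). SOD3, the extracellular superoxide dismutase, was at 214, 440.1 and 456 CPM at 6 months and at 4.13, 2.80 and 2.26 CPM at 4 years (-6.91 ± 0.38, adjusted p = 1.80e-07). The remaining 17 included the matrix and basement membrane genes COL4A6, TINAGL1, EMILIN3 and LUM and the adhesion genes CXADR and PDPN. Among the 10 genes that fell by at least 2-fold with the smallest p were also WLS, which carries WNT ligands to the cell surface, from 292 to 357 CPM at 6 months to 11.8 to 12.3 at 4 years (-4.73 ± 0.13, adjusted p = 7.48e-09), and MAGED2, NREP, CNN3, SEMA6D and FCGBP.

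Some genes were at 0 counts in all 3 libraries of 1 age. ABHD16B, an abhydrolase, was at 139, 135 and 113 CPM at 4 years and was at least 3282-fold higher than at 6 months, where the floor was 3 counts over the group. BANF2, a relative of the barrier-to-autointegration factor, was at 101, 112 and 67.7 CPM at 4 years and was at least 2419-fold higher. JPH4, a junctophilin, was at 93.8, 98.2 and 79.1 CPM at 4 years and was at least 2309-fold higher. In the other direction the levels were lower and less even. IRF9, which carries interferon signals to the nucleus, was at 28.0, 35.0 and 16.9 CPM at 6 months and at 0 counts at 4 years, at least 805-fold lower. PTPRCAP, which binds the leukocyte phosphatase CD45, was at 26.3, 22.4 and 9.80 CPM at 6 months and at least 593-fold lower at 4 years. One identifier of the imprinted gene GNAS, ENSBTAG00000052413, was at 20, 2.45 and 208 CPM at 6 months and 0 at 4 years, so that 1 library held most of its counts. The other GNAS identifier was at 752, 835 and 689.7 CPM at 6 months and at 112, 116 and 102 CPM at 4 years (log2 fold change -2.79 ± 0.12, adjusted p = 5.18e-08).

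Lists of genes of known role showed where the change lay. Over all tested genes 42.1% rose and 38.9% fell, and each list is read beside these shares. Lists of the germ cell line from meiosis onward rose nearly as a whole, and lists of stroma, growth signals and the ribosome fell.

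**Figure D3:**
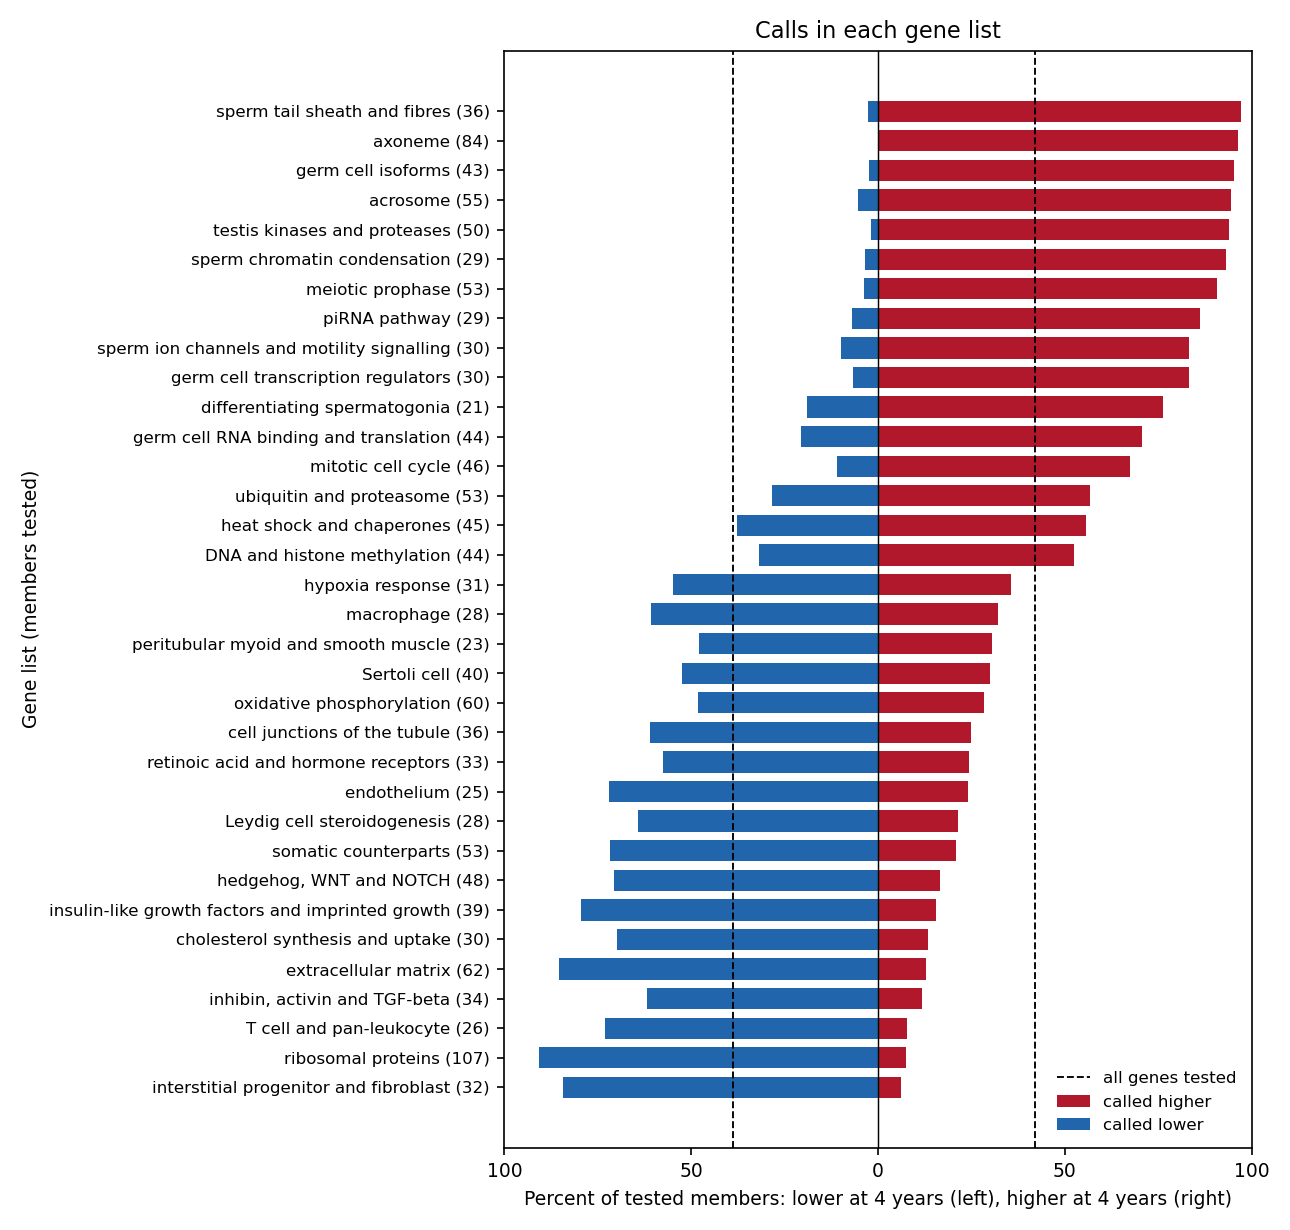
For each of the lists with at least 20 tested members (number tested in brackets), the bars give the percent of members called higher (right) and called lower (left) at 4 years, and the dashed lines the same over all genes tested. Axoneme and sperm tail genes reached 96.4 and 97.2% higher, and extracellular matrix and ribosomal protein genes 85.5 and 90.7% lower.

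Meiotic genes rose. Of 53 tested genes of meiotic prophase, 48 rose and 2 fell, with a median log2 fold change of 4.24, and 1 more was not tested. SYCE2, a central element protein of the synaptonemal complex, was at 0.917, 0.988 and 1.19 CPM at 6 months and at 132, 126 and 138 CPM at 4 years (7.00 ± 0.15, adjusted p = 6.87e-09). MEIOC, which keeps spermatocytes in meiotic prophase, was at 0.496, 0.514 and 0.741 CPM at 6 months and at 167, 187 and 215 CPM at 4 years (8.34 ± 0.20, adjusted p = 6.87e-09). HORMAD2, a protein of unpaired chromosome axes, was at 6.64, 5.49 and 7.41 CPM at 6 months and at 229.8, 227 and 233 CPM at 4 years (5.14 ± 0.14, adjusted p = 7.72e-09). These libraries did not overlap between the ages. The 2 members that fell were MEI1, a factor of meiotic DNA breaks, from 239 to 273 CPM at 6 months to 24.5 to 27.5 at 4 years (-3.28 ± 0.11, adjusted p = 1.58e-08), and SYCP2L, known from oocytes, from 7.25 to 9.64 CPM to 0.277 to 1.12 (-3.32 ± 0.43, adjusted p = 7.16e-05). STRA8, which starts meiosis, was at 1.15, 2.25 and 0.535 CPM at 6 months and at 6.14, 10.9 and 8.52 CPM at 4 years (2.70 ± 0.46, adjusted p = 0.000479).

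Genes that silence transposons and that switch on spermatid transcription rose with them. Of 29 tested genes of the piRNA pathway, in which small RNAs guide PIWI proteins to transposons, 25 rose and 2 fell (median 4.15), and 1 was not tested. PIWIL1 was at 0.229, 0.830 and 0.576 CPM at 6 months and at 218, 267 and 184 CPM at 4 years (8.67 ± 0.32, adjusted p = 1.98e-08). TDRD5, a tudor protein of germ granules, was at 2.21, 5.02 and 3.42 CPM at 6 months and at 509.9, 564 and 564 CPM at 4 years (7.26 ± 0.28, adjusted p = 2.45e-08). DDX4, the germ cell helicase VASA, was at 4.77, 7.98 and 6.01 CPM at 6 months and at 222, 239 and 266 CPM at 4 years (5.28 ± 0.20, adjusted p = 2.38e-08). PIWIL4, whose call was lost in 5 of the alternatives, and TDRD10 fell, by 0.94 ± 0.34 (adjusted p = 0.0284) and 1.65 ± 0.25 (adjusted p = 0.000229) on the log2 scale. Of 30 tested transcription regulators of germ cells, 25 rose and 2 fell (median 4.39, or 3.94 with genes at 0 counts set to their bound), and 2 were not tested. CREM, the activator of spermatid genes, was at 2.10, 1.70 and 2.63 CPM at 6 months and at 252, 263 and 279 CPM at 4 years (6.95 ± 0.18, adjusted p = 7.23e-09). TCFL5, a helix-loop-helix factor of spermatocytes, was at 10.8, 10.6 and 11.7 CPM at 6 months and at 312, 306 and 289.7 CPM at 4 years (4.77 ± 0.12, adjusted p = 6.87e-09). ZBTB20 and TAF7L fell, by 2.25 ± 0.16 and 1.14 ± 0.17.

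Of 29 tested genes of sperm chromatin condensation, 27 rose and 1, the histone gene H2BU1, fell (-0.44 ± 0.16, adjusted p = 0.0314), with 2 not tested. H2BU1 did not pass with either of 2 other scalings, in DESeq2, in the fit of 9 libraries or when any of 5 of the 6 libraries was left out, where its adjusted p was 0.0595 to 0.182. The median log2 fold change was 8.08, or 6.58 with genes at 0 counts set to their bound. PRM1, protamine 1, was at 0.344, 0.237 and 0.247 CPM at 6 months and at 475, 468 and 378 CPM at 4 years (10.61 ± 0.21, adjusted p = 6.87e-09). TNP1 was at 0.153, 0.198 and 1.11 CPM at 6 months and at 956, 1032 and 772 CPM at 4 years (10.90 ± 0.49, adjusted p = 5.63e-08). TNP2, the second transition protein, was at 0.153, 0.0790 and 0.0412 CPM at 6 months and at 148, 171 and 105 CPM at 4 years (10.51 ± 0.34, adjusted p = 1.24e-08). TSSK6, a kinase needed for this packing, had 3 counts over the 6-month libraries and reached 244, 198 and 168 CPM at 4 years, a ratio of 5177 with a 95% counting interval of 1771 to 25105. H2BL1, a histone variant, had 2 counts at 6 months, and its ratio was 5971 (95% counting interval 1653 to 49306). PRM1 was even between animals at both ages, whereas PRM2 and TNP1 were highest at 6 months in replicate 3.

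Acrosome genes rose in 52 of 55 tested members and fell in 3, with a median of 8.93 and 3 not tested. ACRV1, an acrosomal vesicle protein, was at 0, 0.0790 and 0.123 CPM at 6 months and at 156, 209.6 and 167 CPM at 4 years (11.30 ± 0.33, adjusted p = 9.04e-09). ACR, the protease acrosin, was at 0.115, 0 and 0.0823 CPM at 6 months and at 111, 108 and 98.8 CPM at 4 years (10.55 ± 0.31, adjusted p = 8.55e-09). SPATA16, of acrosome formation, was at 0.191, 0.356 and 0.247 CPM at 6 months and at 187, 176 and 213 CPM at 4 years (9.48 ± 0.21, adjusted p = 6.87e-09). IZUMO4, of the sperm protein family that includes the egg-binding IZUMO1, was at 0.878, 0.869 and 0.947 CPM at 6 months and at 505, 456 and 363 CPM at 4 years (8.93 ± 0.20, adjusted p = 6.87e-09). The members that fell were SPACA6 (-2.66 ± 0.27, adjusted p = 1.33e-05), HYAL1 (-0.99 ± 0.20, adjusted p = 0.00133), a hyaluronidase of somatic cells, and ACTRT3 (-0.45 ± 0.12, adjusted p = 0.00804).

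The sheath and axoneme lists of the sperm tail had the highest shares of genes that rose (97.2 and 96.4%) among the lists with at least 20 tested members. Of 84 tested axoneme genes 81 rose and 3 did not pass, with a median of 5.59 and 6 not tested. ROPN1L, of the radial spokes, was at 0.917, 0.869 and 1.32 CPM at 6 months and at 608, 621 and 509.6 CPM at 4 years (9.13 ± 0.20, adjusted p = 6.87e-09). TEKT2, a tektin of the doublet microtubules, was at 0.802, 1.46 and 1.23 CPM at 6 months and at 453, 474 and 402 CPM at 4 years (8.57 ± 0.21, adjusted p = 7.18e-09). Of 36 genes of the sheath and fibres around the axoneme, 35 rose and SEPTIN4 fell (-0.59 ± 0.13, adjusted p = 0.00203), with a median of 8.19. AKAP3 and AKAP4, anchoring proteins of the fibrous sheath, rose by 8.13 ± 0.22 and 7.63 ± 0.25, to 398 to 483 and 242 to 284 CPM. ODF1, an outer dense fibre protein, had 3 counts over the 6-month libraries and was at 294, 272 and 201 CPM at 4 years, a ratio of 6553 (95% counting interval 2242 to 31779). Of 30 ion channels and motility signalling genes, 25 rose and 3 fell (median 5.42). SLC9C1, the sperm sodium-proton exchanger, was at 0.229, 0.119 and 0.123 CPM at 6 months and at 86.9, 89.7 and 93.0 CPM at 4 years (9.11 ± 0.21, adjusted p = 6.87e-09). ADCY10, the soluble adenylyl cyclase, stood on 2 identifiers that rose, ENSBTAG00000021359 by 4.44 ± 0.16 (adjusted p = 1.88e-08) and ENSBTAG00000001052 by 7.70 ± 0.41 (adjusted p = 1.59e-07). ADCY3, SLC22A16 and SLC16A7 fell, SLC16A7 at an adjusted p of 0.0498 that was lost in 9 alternatives.

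Kinases and proteases of the testis rose in 47 of 50 tested members (median 6.95, or 6.83 at the bound, with 5 not tested). ADAM20, a membrane protease-like protein whose symbol stands on 6 identifiers, was at 0.115, 0.119 and 0.412 CPM at 6 months and at 332, 312 and 312 CPM at 4 years (10.53 ± 0.28, adjusted p = 7.39e-09). The 1 member that fell was KLK1, tissue kallikrein, at 853, 1378 and 1360.2 CPM at 6 months and at 31.8, 32 and 27.3 CPM at 4 years (-5.30 ± 0.22, adjusted p = 3.70e-08). RNA-binding and translation genes of germ cells were more mixed, with 31 of 44 higher and 9 lower (median 1.40, 11 not tested). YBX3, a cold shock protein, was at 23.7, 25.5 and 27.8 CPM at 6 months and at 1104, 976 and 1018 CPM at 4 years (5.33 ± 0.13, adjusted p = 7.23e-09). PAPOLB, the testis poly(A) polymerase, rose from 8.50 to 10.2 CPM to 209 to 233 CPM (4.55 ± 0.13, adjusted p = 7.71e-09). PABPC4, MSI2 and PTBP1, the last a splicing repressor found in most cells, fell by 1.68 ± 0.16, 1.86 ± 0.18 and 0.97 ± 0.10.

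Several widely expressed proteins have a relative known mainly from germ cells, and 38 such pairs, called here somatic and germ cell gene, were compared. In 27 pairs each gene had 1 tested identifier, and FPKM was used so that the 2 genes could be set side by side. The somatic gene fell and the germ cell gene rose in 19 of these pairs, and both rose in 6. The germ cell gene made up over 50% of the pair's FPKM in 3 pairs at 6 months (TBPL1 with 67.4%, MYBL1 with 73.2% and CSTF2T with 66.1%) and in 19 pairs at 4 years, and the median over pairs moved from 3.98 to 79.8%. CETN1, the germ cell centrin, made up 0.183, 1.69 and 4.19% of its pair with CETN2 at 6 months and 99.0, 99.0 and 98.8% at 4 years. PDHA2, a subunit of pyruvate dehydrogenase, made up 0.992, 0.300 and 0.243% of its pair with PDHA1 at 6 months and 97.8, 97.8 and 96.8% at 4 years. GAPDHS, the glycolytic enzyme of the sperm tail, made up 0.277, 0.513 and 0.362% of its pair with GAPDH at 6 months and 71.6, 71.7 and 60.9% at 4 years. In the lactate dehydrogenase pair both genes rose, LDHA by 2.85 ± 0.15 (adjusted p = 1.56e-07) and the germ cell LDHC by 7.21 ± 0.15 (adjusted p = 6.87e-09), and LDHC went from 15.2 to 78.7% of the pair. SLC2A3, a glucose carrier, made up 26.0% of its pair with SLC2A1 at 6 months and 97.8% at 4 years. The share was not higher at 4 years in 2 pairs. CSTF2T fell (-1.31 ± 0.16, adjusted p = 4.26e-05) and went from 66.1 to 38.8% of its pair with CSTF2, and TEKT5 went from 19 to 12.8% with overlapping libraries. TEKT1, the somatic member of that pair by the list, is itself a tektin of flagella and rose by 8.50 on the log2 scale.

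**Figure D4:**
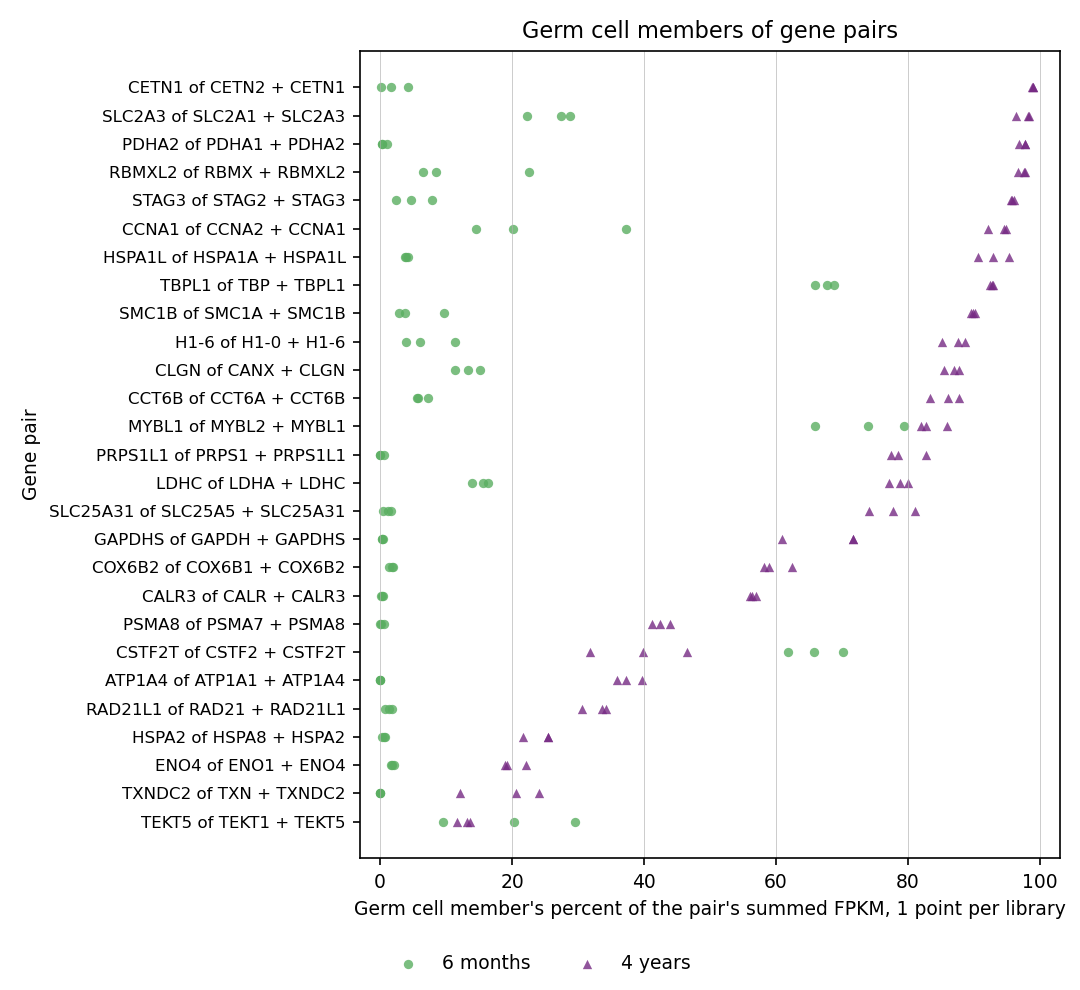
For each of 27 pairs of a somatic and a germ cell gene, the germ cell gene's percent of the pair's summed FPKM is shown with 1 point per library. The 4-year triangles lie to the right of the 6-month circles in all pairs but CSTF2 with CSTF2T and TEKT1 with TEKT5.

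Genes of undifferentiated spermatogonia moved less. Of 19 tested genes of undifferentiated spermatogonia, the stem cell pool, 5 rose, 7 fell and 7 did not pass (median -0.47), and 8 were not tested. GFRA1, the receptor for the growth factor GDNF, was at 7.29, 11.2 and 15.1 CPM at 6 months and at 1.55, 1.76 and 2.69 CPM at 4 years (-2.49 ± 0.34, adjusted p = 9.46e-05). ITGA6, an integrin that other cells of the tissue also carry, was at 258, 219 and 313 CPM at 6 months and at 27.3, 26.4 and 28.5 CPM at 4 years (-3.26 ± 0.15, adjusted p = 6.56e-08). UCHL1, a ubiquitin hydrolase of gonocytes and spermatogonia, was at 54.5, 86.8 and 99.8 CPM at 6 months and at 55.1, 59.3 and 69.4 CPM at 4 years, which did not pass (-0.39 ± 0.21, adjusted p = 0.109) but did without 6-month replicate 1 (-0.61, adjusted p = 0.00397). NANOS3 and LIN28B rose, by 3.18 ± 0.34 (adjusted p = 1.84e-05) and 3.14 ± 0.21 (adjusted p = 7.79e-07). The list of differentiating spermatogonia has 18 symbols, and of its 21 tested identifiers 16 rose and 4 fell (median 2.22, 1 not tested). The symbol PRDM9 stood on 5 identifiers and so counts more than once. STRA8, SYCP3 and REC8, which are genes of meiosis, are also on this list and rose by 2.70 ± 0.46, 4.72 ± 0.36 and 2.90 ± 0.36. DMRTB1, a DMRT family gene of that list, was at 0.687, 2.06 and 0.700 CPM at 6 months and at 58.4, 61.9 and 55.1 CPM at 4 years (5.67 ± 0.36, adjusted p = 5.10e-07). KIT, its ligand KITLG and cyclin D2 (CCND2) fell, by 1.34 ± 0.11, 1.81 ± 0.17 and 1.88 ± 0.19.

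Mitotic genes rose in 31 of 46 tested members and fell in 5 (median 1.18, 8 not tested). BUB1, a spindle checkpoint kinase that also acts in meiosis, was at 11.6, 8.14 and 8.15 CPM at 6 months and at 171, 171 and 153 CPM at 4 years (4.15 ± 0.17, adjusted p = 3.18e-08). PLK1, a kinase of spindle assembly, was at 8.06, 7.03 and 6.92 CPM at 6 months and at 128, 129 and 100 CPM at 4 years (4.02 ± 0.15, adjusted p = 2.41e-08). MKI67, the proliferation antigen, was at 18.1, 11.4 and 7.82 CPM at 6 months and at 26.2, 31.3 and 16.2 CPM at 4 years, so that the ages overlapped (0.98 ± 0.33, adjusted p = 0.0192), and it did not pass when any of 4 libraries was left out. CDK4 and its partner CCND3, which drive entry into S phase, fell by 2.00 ± 0.11 and 2.13 ± 0.17.

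Sertoli cell genes went both ways. Of 40 tested genes 21 fell, 12 rose and 7 did not pass (median -0.82), and 5 were not tested. AMH, the hormone of immature Sertoli cells, was at 657, 867 and 878 CPM at 6 months and at 7.36, 3.95 and 4.91 CPM at 4 years (-7.21 ± 0.27, adjusted p = 2.38e-08). INHA, the inhibin alpha subunit, was at 4197, 3428 and 3505 CPM at 6 months and at 102, 104 and 112 CPM at 4 years (-5.13 ± 0.14, adjusted p = 7.72e-09). VIM, the intermediate filament vimentin, was at 492, 578 and 598 CPM at 6 months and at 54.5, 54.8 and 53.3 CPM at 4 years (-3.36 ± 0.12, adjusted p = 1.85e-08). SOX9, which keeps Sertoli cells male, fell less, from 40.8, 42.4 and 41.3 CPM to 19.7, 15.9 and 16.0 CPM (-1.27 ± 0.14, adjusted p = 1.93e-05), and FSHR, the receptor for follicle-stimulating hormone, by 2.72 ± 0.24 (adjusted p = 5.55e-06). Against these, CLDN11, the claudin of the blood-testis barrier, was at 3.78, 16.4 and 3.13 CPM at 6 months and at 199, 175 and 223 CPM at 4 years (4.68 ± 0.57, adjusted p = 4.44e-05). EPPIN, a protease inhibitor known from testis and epididymis that coats sperm, was at 1.07, 2.88 and 0.947 CPM at 6 months and at 542, 445 and 579 CPM at 4 years (8.32 ± 0.38, adjusted p = 6.57e-08). DEFB119, a defensin, had 2 counts at 6 months and was at 148, 150.1 and 179 CPM at 4 years, a ratio of 5967 (95% counting interval 1652 to 49278). In CLDN11 and EPPIN the second 6-month animal was the highest of its age.

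Leydig cell steroid genes fell in 18 of 28 tested members and rose in 6 (median -1.93, 6 not tested). CYP11A1, which cleaves the cholesterol side chain, was at 573, 462 and 519 CPM at 6 months and at 13.8, 18.9 and 11 CPM at 4 years (-5.15 ± 0.22, adjusted p = 4.18e-08). CYP17A1, the enzyme toward androgens, stood on 3 identifiers that all fell, and the one with most counts, ENSBTAG00000014335, was at 4006, 2973 and 3466 CPM at 6 months and at 187, 268 and 131 CPM at 4 years (-4.15 ± 0.27, adjusted p = 5.75e-07). STAR, which brings cholesterol into mitochondria, stood on 2 identifiers that fell by 5.0 ± 0.19 and 4.81 ± 0.40. NR5A1, the steroidogenic factor SF1, which Sertoli cells also express, fell from 137 to 148 CPM to 12.4 to 15.2 CPM (-3.37 ± 0.12, adjusted p = 1.98e-08). The list's share of all counts was 2.04, 1.53 and 1.35% at 6 months and 0.488, 0.525 and 0.344% at 4 years (exact two-sided permutation test, p = 0.10, the smallest possible). Most of this share was the hormone INSL3, which is on the list and fell by only 1.65 ± 0.25. INSL3 held 13242, 9224 and 8163 of the list's 21308, 15850.5 and 15072 CPM at 6 months. At 4 years it held 3649, 3877 and 2229 of 4696, 5015 and 3127 CPM, so the share does not follow the steroid enzymes. The members that rose with the smallest p act later in sex steroid synthesis. HSD17B3, which makes testosterone in the adult testis, was at 3.06, 2.49 and 2.35 CPM at 6 months and at 27.1, 24.2 and 30.7 CPM at 4 years (3.37 ± 0.19, adjusted p = 2.27e-07). CYP19A1, the aromatase that makes estrogen, was at 0.153, 0.158 and 0.206 CPM at 6 months and at 40.2, 55.1 and 58.3 CPM at 4 years (8.18 ± 0.27, adjusted p = 1.27e-08), and HSD17B1 rose by 6.89 ± 0.23 (adjusted p = 1.28e-08). Cholesterol synthesis and uptake genes fell in 21 of 30 members and rose in 4 (median -2.20, 2 not tested). SCARB1, the receptor for high-density lipoprotein, was at 503, 602 and 404 CPM at 6 months and at 22.4, 20.9 and 20 CPM at 4 years (-4.58 ± 0.17, adjusted p = 2.36e-08). CYP51A1, MVK and FDFT1 rose instead, by 0.91 ± 0.18, 1.09 ± 0.22 and 0.43 ± 0.14. FDFT1 had an adjusted p of 0.0210, and its call was lost in 4 alternatives. CYP51A1 lost its call in the fit of 9 libraries (adjusted p = 0.253), where 1 member of the list rose.

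Matrix and stromal genes fell. Of 62 genes of the extracellular matrix 53 fell and 8 rose (median -2.82), and their share of counts was 3.04, 3.59 and 4.06% at 6 months and 0.263, 0.245 and 0.243% at 4 years. LAMB1, a laminin chain of basement membranes, was at 447, 407 and 462 CPM at 6 months and at 24.2, 26.0 and 19.6 CPM at 4 years (-4.23 ± 0.14, adjusted p = 1.51e-08). FMOD, the collagen-binding fibromodulin, was at 558, 528 and 571 CPM at 6 months and at 32.7, 41.6 and 32.5 CPM at 4 years (-3.96 ± 0.14, adjusted p = 1.73e-08). COL1A1, a chain of type I collagen, was at 82.4, 91.6 and 42.4 CPM at 6 months and at 3.20, 3.92 and 1.39 CPM at 4 years (-4.64 ± 0.41, adjusted p = 4.76e-06), lowest in the third animal of each age. EFEMP1, THBS2 and LAMA5 went the other way, by 4.78 ± 0.42, 1.93 ± 0.17 and 1.46 ± 0.19. Of 32 tested genes of interstitial progenitors and fibroblasts 27 fell and 2 rose (median -2.09, 4 not tested). DCN, the proteoglycan decorin, was at 1138, 837 and 843 CPM at 6 months and at 35.2, 43.3 and 52.4 CPM at 4 years (-4.43 ± 0.20, adjusted p = 6.42e-08). PDGFRB, a receptor of platelet-derived growth factor, and TCF21, a factor of interstitial progenitors, fell by 4.21 ± 0.14 and 4.62 ± 0.17.

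Smooth muscle and vessel lists held members that rose beside members that fell. Of 23 tested genes of peritubular muscle 11 fell and 7 rose (median -0.51, 1 not tested). MYLK, MYH11 and ACTA2, all of smooth muscle contraction, differed. Of the 2 MYLK identifiers the one with most counts fell from 179 to 229 CPM to 32.5 to 39.8 CPM (-2.44 ± 0.14, adjusted p = 2.45e-07), MYH11 rose from 12.6 to 31.7 CPM to 52.0 to 60.1 CPM (1.49 ± 0.32, adjusted p = 0.00182), and ACTA2 was at 40.3, 72.5 and 24.6 CPM at 6 months and at 74.1, 69.4 and 81.0 CPM at 4 years, which did not pass (0.71 ± 0.32, adjusted p = 0.0655) but did in 6 alternatives. Of 25 endothelial genes 18 fell and 6 rose (median -1.66, 1 not tested). CLDN5, the endothelial claudin, was at 81.6, 87.0 and 131 CPM at 6 months and at 6.47, 6.03 and 5.55 CPM at 4 years (-4.05 ± 0.21, adjusted p = 1.30e-07), whereas VWF, the von Willebrand factor, was at 12.3, 13 and 7.37 CPM at 6 months and at 90.5, 91.2 and 94.3 CPM at 4 years (3.07 ± 0.21, adjusted p = 7.13e-07).

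Leukocyte markers varied among the 6-month animals. Of 26 tested T cell and general leukocyte genes 19 fell and 2 rose (median -2.32, 3 not tested), none of the list being at 0 in all libraries of an age. CD3E, a chain of the T cell receptor complex, was at 41.3, 26.6 and 10.8 CPM at 6 months and at 3.57, 4.18 and 2.97 CPM at 4 years (-2.87 ± 0.43, adjusted p = 0.000201), with replicate 1 the highest and replicate 3 the lowest of the 6-month animals. The list's share of counts ran from 0.0144 to 0.0507% at 6 months and from 0.00787 to 0.0270% at 4 years, so that the ages overlapped (exact two-sided permutation test, p = 0.40). In 4-year replicates 2 and 3 CD247, a signalling chain of the T cell receptor, was at 153 and 148 CPM and IL7R, a cytokine receptor, at 33.1 and 17.9 CPM, against 4.46 and 1.42 CPM in replicate 1, and neither passed (adjusted p = 0.0964 and 0.0769). Without these 2 genes, left out after their values were seen, the share was 0.0134 to 0.0462% at 6 months and 0.00693 to 0.00756% at 4 years, with no overlap. PTPRCAP, given above as lost, followed the same order among the 6-month animals, and the part of leukocytes in its change was not tested. Of 28 tested macrophage identifiers 17 fell and 9 rose (median -1.79, 5 not tested), and without those described as WC1 or SCART1-like, left out after their values were seen, 16 of 23 fell and 5 rose (median -1.87). CSF1R, the receptor that macrophages need to survive, fell from 15.5, 18.9 and 25.4 CPM to 5.55, 5.54 and 4.32 CPM (-1.95 ± 0.23, adjusted p = 3.47e-05). MRC1, the mannose receptor, was at 21.8, 25.6 and 24.0 CPM at 6 months and at 121, 139 and 161 CPM at 4 years (2.56 ± 0.14, adjusted p = 1.71e-07), and CD14 rose by 3.13 ± 0.19 (adjusted p = 3.24e-07). The scavenger receptor symbol CD163 stood on 7 identifiers, of which ENSBTAG00000019669, described as the CD163 molecule, was at 19.1, 20 and 24.2 CPM at 6 months and at 13.4, 17.0 and 26.9 CPM at 4 years and did not pass (-0.14 ± 0.25, adjusted p = 0.603). The 6 others are described as WC1 or SCART1-like, relatives of CD163 known from lymphocytes, and 4 of them rose, 1 fell and 1 was not tested.

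Of the lists for tissues that a testis sample might include by chance, many members could not be tested. For erythrocytes and platelets 8 of 20 identifiers were tested, and 4 rose and 2 fell. Besides HEMGN, the members that rose were ITGA2B, TAL1 and EPB42. ITGA2B, an integrin subunit, was at 1.95, 2.37 and 1.93 CPM at 6 months and at 69.1, 62.0 and 62.5 CPM at 4 years (log2 fold change 4.95 ± 0.16, adjusted p = 1.15e-08). TAL1 rose by 1.67 ± 0.23, to 14.5 to 22.1 CPM, and EPB42 went from 0 counts to 0.436 to 1.04 CPM. The erythroid factor gene HEMGN was at 97.9, 128 and 73.2 CPM at 4 years with 3 counts at 6 months, while HBB and ALAS2, the defining genes of red cells, were at or near 0, the tested HBA identifier was at most at 0.980 CPM, AHSP was at 0.988 to 5.08 CPM and GYPC, which other cells also carry, was at 6.62 to 40.7 CPM. For rete testis, efferent duct and epididymis 9 of 32 were tested, and 4 rose and 3 fell. PTGDS, which Leydig cells also express, was the highest of that list at 6 months, with 210.2, 296 and 331 CPM, and was at 106, 92.2 and 82.5 CPM at 4 years. EPCAM, which germ cells also carry, was at 86.4 to 93.4 CPM at 4 years. For skeletal muscle, mesothelium, adipocytes and Schwann cells 18 of 28 were tested, and 8 rose and 6 fell, with ACTA1 and MYH2 of skeletal muscle at or under 0.316 CPM in each library.

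Signalling genes of growth fell more often than they rose. Of 34 tested genes of inhibins, activins and TGF-beta 21 fell and 4 rose (median -1.17, 9 not tested), and GDF9, the growth factor known from oocytes, was among those that rose, from 0.840, 2.06 and 1.32 CPM to 18.2, 17.8 and 19.5 CPM (3.72 ± 0.30, adjusted p = 2.75e-06). Of 48 genes of the hedgehog, WNT and NOTCH pathways 34 fell and 8 rose (median -1.71, 6 not tested). NOTCH2, a receptor, was at 397, 402 and 399 CPM at 6 months and at 44.0, 42.4 and 46.5 CPM at 4 years (-3.17 ± 0.10, adjusted p = 1.26e-08). WNT3, a ligand, and WIF1, which binds WNT ligands, rose, from 0.412 to 0.711 and 0.0823 to 0.237 CPM to 29.9 to 45.9 and 13.6 to 20.7 CPM (6.06 ± 0.28 and 6.73 ± 0.35). Of 39 genes of insulin-like growth factors and imprinted growth 31 fell and 6 rose (median -2.47, 2 not tested). IGF2, the fetal growth factor, was at 742, 805 and 891 CPM at 6 months and at 91.1, 74.9 and 71.7 CPM at 4 years (-3.36 ± 0.14, adjusted p = 4.11e-08), CDKN1C, an imprinted inhibitor of the cell cycle, fell by 4.34 ± 0.13 (adjusted p = 8.67e-09), and the receptor IGF1R rose by 1.96 ± 0.14 (adjusted p = 9.10e-07). Of 33 genes of retinoic acid and hormone receptors 19 fell and 8 rose (median -0.99, 4 not tested). The enzymes that make retinoic acid parted, ALDH1A1 going from 1994, 1986 and 1950.1 CPM to 603, 597 and 592 CPM (-1.73 ± 0.10, adjusted p = 2.94e-07) and ALDH1A2 from 156, 121 and 132 CPM to 479, 423 and 469 CPM (1.75 ± 0.13, adjusted p = 1.25e-06). LHCGR, the receptor for luteinizing hormone, fell from 209 to 217 CPM to 24.7 to 30.5 CPM (-2.95 ± 0.12, adjusted p = 2.97e-08). Junction genes of the tubule fell in 22 of 36 members and rose in 9 (median -0.71, 2 not tested), and NECTIN3, the nectin by which spermatids hold to Sertoli cells, rose from 44.4 to 46.2 CPM to 249 to 277 CPM (2.53 ± 0.10, adjusted p = 3.25e-08).

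Of the 39 lists, ribosomal protein genes lost the largest share of counts. They held 24.5, 23.8 and 23.4% of counts at 6 months and 4.22, 4.65 and 4.52% at 4 years, or 17.9% ± 0.265 and 2.79% ± 0.0951 without RPS29. Of 233 identifiers with such a symbol 107 were tested, and 97 fell and 8 rose (median -2.93). All 84 cattle identifiers with at least 100 CPM at 6 months fell, with a median of -2.96, and the list's count of genes that fell stayed within 1.5 times in every alternative run. RPL27A was at 3456, 3299 and 3314 CPM at 6 months and at 205, 201 and 200.3 CPM at 4 years (-4.05 ± 0.11, adjusted p = 7.72e-09). RPL10, encoded on the X chromosome in mammals, fell by 4.77 ± 0.14 and 4.8 ± 0.14 on its 2 tested identifiers. Of the 8 members that rose, 7 were under 1 CPM in each 6-month library, and the other was an RPS4X identifier. The RPS4X identifier that the circRNA table places on the X chromosome was at 1673, 1547 and 1885 CPM at 6 months and at 75.9, 95 and 83.7 CPM at 4 years (-4.33 ± 0.15, adjusted p = 1.48e-08), whereas another with the same symbol, ENSBTAG00000025617, was at 63.3, 58.7 and 66.4 CPM at 6 months and at 263, 287 and 256 CPM at 4 years (2.10 ± 0.11, adjusted p = 1.28e-07). Reads of near-identical ribosomal copies can be divided between identifiers in the authors' counting, so values of single identifiers are uncertain.

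Genes of protein turnover and energy split within their groups. Of 53 tested genes of ubiquitin and the proteasome 30 rose and 15 fell (median 0.92, 5 not tested). RNF151, a ligase of spermatids, rose from 0.700 to 1.26 CPM to 179 to 255 CPM (7.89 ± 0.25, adjusted p = 1.15e-08), while PSME1, an activator of the proteasome known from immune cells, fell from 439, 389 and 369 CPM to 53.8, 58.1 and 53.0 CPM (-2.86 ± 0.12, adjusted p = 3.32e-08). Of 45 heat shock and chaperone genes 25 rose and 17 fell (median 0.49, 10 not tested). HSPA4L, of the HSP110 family, was at 2.71, 4.23 and 2.92 CPM at 6 months and at 589, 566 and 527 CPM at 4 years (7.41 ± 0.20, adjusted p = 7.48e-09), and SERPINH1, the chaperone of collagen, was at 1677, 1767 and 1913 CPM at 6 months and at 108, 123 and 139.9 CPM at 4 years (-3.85 ± 0.14, adjusted p = 2.06e-08). Of 60 tested genes of oxidative phosphorylation 29 fell and 17 rose, with a median of -0.25 and 37 not tested. COX6A1 and NDUFA4 fell by 1.96 ± 0.10 and 2.16 ± 0.12, and COX4I1 and NDUFA6 rose by 2.02 ± 0.12 and 2.33 ± 0.12, all of them subunits of the respiratory chain. Of 31 tested genes of the response to low oxygen 17 fell and 11 rose (median -0.91, 4 not tested). CA9, a carbonic anhydrase, was at 0.382, 0.672 and 1.15 CPM at 6 months and at 262, 207 and 191 CPM at 4 years (8.23 ± 0.30, adjusted p = 1.98e-08), PDK1, which holds pyruvate back from mitochondria, rose by 2.23 ± 0.12 (adjusted p = 1.49e-07), and PGK1, a glycolytic enzyme on the X chromosome, fell by 2.84 ± 0.11 (adjusted p = 2.64e-08). Of 44 genes of DNA and histone methylation 23 rose and 14 fell (median 0.61, 2 not tested). DOT1L, the methyltransferase of histone H3 lysine 79, was at 19.4, 17.0 and 17.2 CPM at 6 months and at 198, 211 and 169 CPM at 4 years (3.43 ± 0.13, adjusted p = 2.41e-08), and TET1 and TET2, which oxidize methylated cytosine, fell by 3.78 ± 0.22 and 3.68 ± 0.18.

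The table holds 533 loci named MSTRG, the form of name that StringTie gives to transcripts it assembles, beside 21650 cattle identifiers. Of 470 tested MSTRG loci 360 rose (76.6%) and 82 fell (17.4%), with a median log2 fold change of 5.40, or 4.77 with loci at 0 counts set to their bound, and 63 were not tested. Among the 15880 tested cattle identifiers 41.1% rose and 39.5% fell, with a median of 0.01. How the MSTRG loci were assembled and merged is not given in the sources used here. If libraries of this series were used, the set was drawn from the values compared, and its share of rises may follow from that. No counts at 6 months were found for 106 of the MSTRG loci that rose. The loci held few counts, 0.396, 0.50 and 0.483% at 6 months and 1.31, 1.33 and 1.41% at 4 years. The 236 tested loci without a symbol rose in 201 and fell in 27, those with a symbol rose in 159 of 234 and fell in 55, and those with neither symbol nor description rose in 60 of 69 and fell in 6. Of the loci that rose 26 reached 100 CPM at 4 years, and of those that fell 7 were at 100 CPM or more at 6 months.

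The MSTRG loci with most counts at 4 years carry varied descriptions in the deposited table. MSTRG.6623, described as a dehydrogenase/reductase of the SDR family member 12, was at 0.496, 1.98 and 2.96 CPM at 6 months and at 969, 817 and 771 CPM at 4 years (8.89 ± 0.47, adjusted p = 1.56e-07). MSTRG.14523, described as like liprin-alpha-1, a scaffold protein of cell contacts, was at 7.18, 23.9 and 17.7 CPM at 6 months and at 715, 715 and 881 CPM at 4 years (5.57 ± 0.40, adjusted p = 1.25e-06). MSTRG.15917, with the retroviral symbol ERVK-10 but a liprin-alpha-1-like description, was at 0.420, 0.356 and 0.988 CPM at 6 months and at 388, 379 and 834 CPM at 4 years (9.83 ± 0.50, adjusted p = 1.22e-07). The third 4-year animal had more CPM of MSTRG.15917 than the other 4-year animals together. MSTRG.26815, described as SPANX-L after a family of nuclear proteins of human sperm, was at 2.44, 12.7 and 4.24 CPM at 6 months and at 400.1, 547 and 445 CPM at 4 years (6.16 ± 0.55, adjusted p = 4.92e-06). MSTRG.6793, described as a membrane-spanning 4-domains protein, was at 0, 0.198 and 0.700 CPM at 6 months and at 344, 333 and 329 CPM at 4 years (10.15 ± 0.47, adjusted p = 6.75e-08). MSTRG.27634, described as Shroom2, an actin regulator, had no counts at 6 months and was at 83.9, 110.5 and 46.6 CPM at 4 years, at least 2114-fold higher.

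The MSTRG loci with the smallest p that rose were MSTRG.1795, MSTRG.26168, MSTRG.25487, MSTRG.18181 and MSTRG.13050. MSTRG.1795, with the transposon symbol pol and a reverse transcriptase description, was at 3.51, 4.03 and 4.36 CPM at 6 months and at 294, 267 and 266 CPM at 4 years (6.12 ± 0.14, adjusted p = 6.87e-09). MSTRG.25487, described as like SPATA31A6, of a spermatogenesis-associated family, was at 0.0764, 0.0395 and 0.0823 CPM at 6 months and at 42.5, 42.7 and 42.1 CPM at 4 years (9.23 ± 0.24, adjusted p = 7.39e-09). MSTRG.26168, described as transmembrane protein 230, was at 0.115, 0.198 and 0.123 CPM at 6 months and at 89.7, 94.2 and 97.4 CPM at 4 years (9.29 ± 0.20, adjusted p = 6.87e-09). The 4-year animals were alike in these 3 loci. Other MSTRG loci fell. MSTRG.448, with the symbol EEF1A1, was at 879, 1558 and 1752 CPM at 6 months and at 205, 232 and 246 CPM at 4 years (-2.62 ± 0.24, adjusted p = 6.44e-06). MSTRG.22517, described as the linker histone H1.0 of resting cells, was at 249, 291 and 383 CPM at 6 months and at 76.2, 62.6 and 79.4 CPM at 4 years (-2.08 ± 0.18, adjusted p = 3.48e-06). MSTRG.22829, without symbol or description, was at 153, 235 and 159.6 CPM at 6 months and at 13.9, 10.8 and 12.7 CPM at 4 years (-3.87 ± 0.20, adjusted p = 1.32e-07). MSTRG.26861, described as the transcription cofactor VGLL1, was at 52.2, 51.3 and 75.4 CPM at 6 months and at 3.34, 2.83 and 3.88 CPM at 4 years (-4.16 ± 0.22, adjusted p = 1.38e-07). A locus with a symbol shared by cattle identifiers may divide reads with them.

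The X chromosome is known to be silenced in male meiosis. Chromosomes were known for genes that the deposited circRNA table names as hosts of circular RNA. Of 289 tested X-linked hosts 199 fell (68.9%) and 53 rose (18.3%), with a median of -1.23, whereas of 9094 autosomal hosts 36.5% fell and 44.8% rose, with a median of 0.18. No test of this difference was made. The share of counts held by X-linked hosts was 1.63, 1.76 and 2.00% at 6 months and 0.714, 0.707 and 0.797% at 4 years. UTP14A, of ribosome assembly, was at 318, 312 and 429 CPM at 6 months and at 20.7, 18.6 and 19.3 CPM at 4 years (-4.18 ± 0.16, adjusted p = 2.53e-08). OGT, the enzyme that adds sugar to nuclear proteins, was at 241, 253 and 256 CPM at 6 months and at 41.0, 40.4 and 42.7 CPM at 4 years (-2.60 ± 0.10, adjusted p = 2.55e-08). COL4A5, a basement membrane collagen, was at 1449, 1495 and 2229.6 CPM at 6 months and at 47.1, 41.8 and 46.8 CPM at 4 years (-5.25 ± 0.21, adjusted p = 2.85e-08). Other X-linked hosts rose, and the X-linked examples were picked after their values were seen. VSIG1, an adhesion molecule, was at 1.99, 0.751 and 0.617 CPM at 6 months and at 158, 134 and 168 CPM at 4 years (7.08 ± 0.35, adjusted p = 9.34e-08). TEX11, needed for meiotic crossing over, was at 27.9, 42.4 and 42.8 CPM at 6 months and at 107, 124 and 153 CPM at 4 years (1.76 ± 0.20, adjusted p = 2.49e-05). NXF3, a relative of the RNA export factor NXF1, had 3 counts at 6 months and was at 69.0, 46.9 and 49.2 CPM at 4 years, a ratio of 1389 (95% counting interval 475 to 6738). Glycerol kinase (GK) showed both patterns, since the identifier placed on X fell by 2.35 on the log2 scale and the other, ENSBTAG00000000301, was at 0.878, 1.34 and 1.15 CPM at 6 months and at 356, 386 and 367 CPM at 4 years (8.36 ± 0.17, adjusted p = 6.87e-09).

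**Figure D5:**
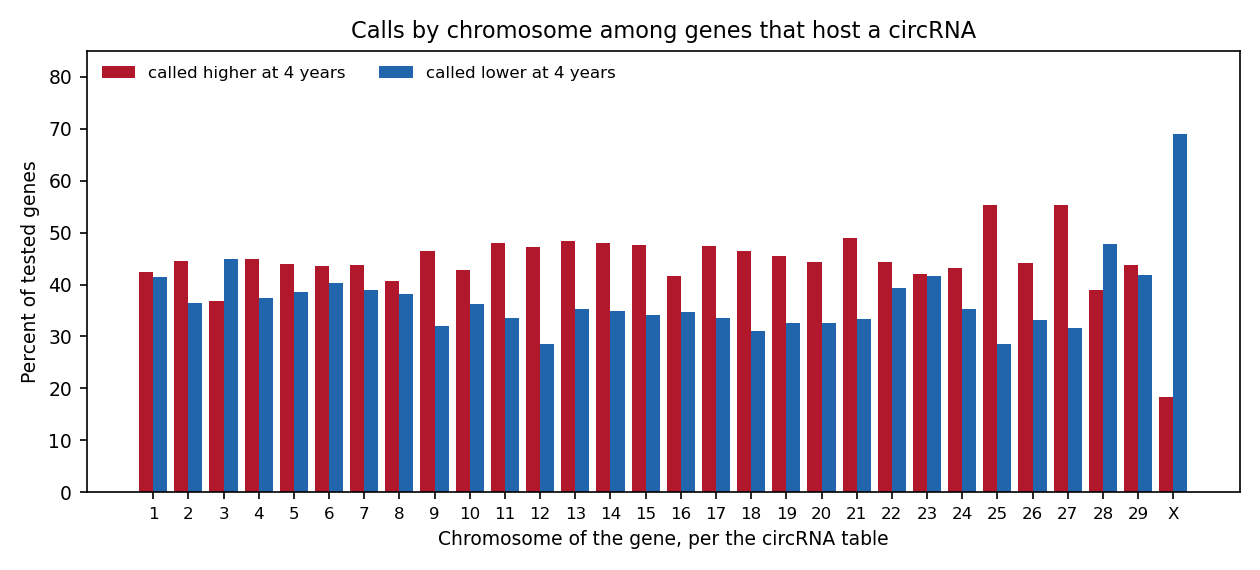
Percent of tested circRNA host genes called higher (red) and lower (blue) at 4 years on each chromosome named in the deposited circRNA table. On X 68.9% were lower and 18.3% higher, and on chromosomes 25 and 27, which had the highest shares, 55.3% were higher.

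Some abundant genes stayed close to even relative to the other RNA. The 10 genes with most counts whose 95% interval lay within 0.5 of 0 on the log2 scale were GSTM3, PRPF8, EIF3G, EIF4H, SARAF, VCP, TM9SF2, SEPTIN2, SFPQ and PSMC1. VCP, a segregase of protein quality control, was at 365, 363 and 351 CPM at 6 months and at 392, 357 and 345 CPM at 4 years (0.02 ± 0.10, adjusted p = 0.863). PRPF8, a core protein of the spliceosome, was at 597, 625 and 692 CPM at 6 months and at 733, 693 and 657 CPM at 4 years (0.12 ± 0.11, adjusted p = 0.323). The ages overlapped in both. ACTB and GAPDH, often used as reference genes, both fell. ACTB was at 1392, 1344 and 1332 CPM at 6 months and at 367, 400.4 and 365 CPM at 4 years (-1.84 ± 0.11, adjusted p = 2.47e-07), and the expressed GAPDH identifier was at 1676, 1695 and 1755 CPM at 6 months and at 291, 304 and 344 CPM at 4 years (-2.45 ± 0.12, adjusted p = 7.58e-08).

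In a fit of all 9 gene libraries, 1 of 16742 genes was called between 4 years and 18 months (0.00597%), with 3572 at an unadjusted p under 0.05, 10026 (59.9%) between 18 months and 6 months, and 12372 (73.9%) between 4 years and 6 months, comparisons that share libraries. CPM in this paragraph are in the scaling of that fit. The second 18-month library stood apart, with 2.33% of its counts in mitochondrially encoded genes against 0.00575 and 0.00928% in the other 18-month libraries and at most 0.0116% in the 6 libraries of the other ages. Without it, a fit added after the data were seen, 2 of 16943 genes were called between 4 years and 18 months (0.0118%), with 2413 at an unadjusted p under 0.05, 11953 (70.5%) between 18 months and 6 months, and 13209 (78.0%) between 4 years and 6 months. The part of its mitochondrial counts in the values that follow was not tested. The 18-month animals were unlike each other in sperm genes. PRM1 was at 288, 12.5 and 96.5 CPM at 18 months and at 378 to 489.8 CPM at 4 years (1.76 ± 0.81, adjusted p = 0.244), and INHA was at 128, 699.6 and 272 CPM at 18 months and at 106 to 112 CPM at 4 years (-1.76 ± 0.52, adjusted p = 0.174). DEFB119 and CLDN11 were at 149 to 245 and 210.3 to 328 CPM in all 3 animals of 18 months, beside 153 to 179 and 179 to 222 CPM at 4 years, and CCL25 was under 1 CPM in all 3. The second 18-month animal, low in PRM1 and high in INHA, had DEFB119 and CLDN11 levels like those of the others.

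The authors' deposited table for this comparison lists 10565 genes, 6391 higher and 4174 lower at 4 years. It shares 9519 genes with the 10340 called here at 2-fold or more, which is 90.1% of the authors' deposited table and 92.1% of the calls, and 9510 of them have the same direction.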

How the data were processed

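Testis RNA of 3 animals aged 6 months and 3 aged 4 years was compared, with 3 animals of 18 months used only where stated. The deposited gene table holds estimated counts and FPKM for each library. The submitters' processing notes name fastp 0.18.0, HISAT2 2.1.0, StringTie 1.3.4 and the cattle build UMD3.1 without saying what each did, and the counting tool is not given in the sources used here. Estimated counts as deposited were rounded, since 2937 genes had a value that was not whole. The FPKM values of the authors were used to compare genes with each other. The authors' deposited table of this comparison gives a log2 ratio of 6 months over 4 years, whose sign was turned, and a p-value with its FDR from a test not given in the sources used here. Chromosomes of host genes came from the deposited circRNA table.

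Genes were filtered with edgeR's filterByExpr (minimum count 10) and scaled by TMM, and the ages were compared with edgeR 4.0.16 (quasi-likelihood test, R 4.3.3) and Benjamini-Hochberg adjustment, with 4 residual degrees of freedom. The SE is the log2 fold change divided by the square root of F. CPM refers to the TMM-scaled library size. Low-count ratios carry exact counting intervals at 95%, which cover counting error only. Exact permutation tests and counts were made with Python 3.11.15, pandas 2.3.3 and scipy 1.17.1. On simulated counts with 14932 genes, 100 of 100 genes changed 4-fold and 74 of 100 changed 2-fold were called, with 15 false calls. The simulation drew both ages from the 6-month means with a common dispersion and left all other genes unchanged. In the data 81.0% of genes were called, so the simulated recovery and false calls do not describe this comparison. The alternatives were other scalings and filters, DESeq2 1.42.0, a test against a 2-fold change, a fit of 9 libraries, a replicate block and each library left out. Replicate numbers in the titles did not pair the animals.

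The genes, the 39 lists, the somatic and germ cell pairs and the tests were chosen with earlier results of these data known. Named genes were 30 anchors, the 10 with the smallest p and the 12 with most counts in each direction, 5 MSTRG loci by each of these measures, up to 4 members of each list with the smallest p and up to 3 that went against it, the 5 with most counts at 1 age and 0 at the other, and the 10 most abundant even genes. Symbols on more than 1 identifier (1553) may share reads, and counting by strand is not given in the sources used here. Sequences were not used here. Results of some genes are not reported here.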

Additional observations from a re-analysis of the deposited data

How the results depend on the processing

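Depth was even enough to call most genes, and genes under about 10 counts per library were not tested. Among alternatives, the genes that rose numbered 6152 to 7370 and those that fell 5453 to 6466 over scalings, filters, DESeq2, the fit of 9 libraries, the replicate block and genes with a symbol on 1 identifier (5729 rose there), the last chosen after seeing the data like the scaling without ribosomal protein genes. Testing against a 2-fold change left 3995 genes lower and 4983 higher, since this test asks for more than a difference. Leaving out 1 library gave 6602 to 6898 higher and 6141 to 6284 lower. Library size alone moved the median of all genes by 0.17 on the log2 scale, and the fit of 9 libraries by -0.12. Abundant transcripts lost numbered 2, and 1 with library size alone or with scaling without ribosomal protein genes. They numbered 3 when 6-month replicate 1 or 2 or 4-year replicate 1 or 3 was left out.

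Same-numbered animals did not deviate together (r of -0.055, -0.008 and -0.024), and with the replicate block 6758 genes rose and 6172 fell, with 355 and 82 MSTRG loci. Of 4460 values of 320 named genes under the alternatives, 4402 kept direction and call, 47 lost the call, 11 gained it and 0 reversed, and 301 genes kept both throughout. The genes that changed call most often were H2BU1, SLC16A7, WFDC2, ACTA2, PIWIL4, FDFT1 and MKI67. Of the even genes, PRPF8 and EIF3G passed with library size alone, EIF4H without 1 library and SFPQ under a stricter filter. The cause of these changes was not tested.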

Other observations

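Genes with a transcription factor family in the deposited table fell slightly more often than they rose, with 480 of 1138 tested lower and 415 higher (median log2 fold change -0.19), beside 38.9% lower and 42.1% higher over all genes. Zinc finger genes of the C2H2 type were the largest family, and 206 of 446 fell and 136 rose (median -0.40). Of 12 genes with an MH1 domain, which SMAD proteins carry, 10 fell and 2 did not pass (median -1.80). Interferon regulatory factors fell in 7 of 10 members and rose in 1 (median -2.21). E2F factors of the cell cycle rose in 7 of 9 tested members and fell in 1 (median 1.29), and cold shock domain genes, the family of YBX2 and YBX3, rose in 7 of 8 and fell in 1 (median 2.48). These families were looked at without a list chosen for them.

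Loci annotated as reverse transcriptase, transposon or retrovirus held 0.203% ± 0.0111 (SD, n = 3) of counts at 6 months and 0.431% ± 0.0492 at 4 years. The 66 tested MSTRG loci of this kind rose in 46 and fell in 17, whereas the 221 with cattle identifiers rose in 19, fell in 36 and did not pass in 166. Over all tested MSTRG loci 76.6% rose and 17.4% fell, so rises were no more frequent among these 66 than in their class. Over all tested cattle identifiers 41.1% rose and 39.5% fell, so both calls were less frequent among these 221. Reads of repeated sequences can be divided among copies, and the part of this in the values was not tested.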
